A study of Mus musculus with 6 samples.

Results

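The 10 genes *Gnaq*, *Gna11*, *Plcb1*, *Plcb3*, *Plcb4*, *Itpr1*, *Itpr2*, *Itpr3*, *Rgs2* and *Rgs4* encode the Gq pathway through which the NK-1 receptor for substance P (SP) signals. They were taken by symbol from a table of 55421 genes, where each has 1 row, and were followed in hippocampal RNA of 6 wild-type male C57BL/6N mice of 8 to 10 weeks. The SP group (n = 3 mice) received SP (10 µM, 100 µL) under the skin over 14 days, and the vehicle group (n = 3 mice) received the same volume of saline. Each mouse gave 1 library, and the labels number the mice 1 to 3 within each group as a batch. Directions follow the names of the table columns and the sample labels, and no deleted or added gene in these mice could serve to check which group a library belongs to. The paper lists *Cckbr* as up-regulated in SP and the myelin genes *Mag* and *Mbp* as downregulated. Under the labels used here *Cckbr* was lower in SP and oligodendrocyte markers were higher. The cause of this difference, which bears on every direction given below, was not tested. The injections were peripheral and the libraries are of bulk tissue, so that fewer cells of a type and less RNA per cell cannot be told apart in any value given here.

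When an agonist binds a Gq-coupled receptor, the alpha subunit Gαq or its close relative Gα11 exchanges GDP for GTP and activates phospholipase C beta. This enzyme splits the membrane lipid phosphatidylinositol bisphosphate into diacylglycerol, which activates protein kinase C, and inositol trisphosphate (IP3), which opens calcium channels of the endoplasmic reticulum, the IP3 receptors. The proteins RGS2 and RGS4 end the signal by speeding the hydrolysis of GTP on Gαq. In the hippocampus the pathway is known for carrying the signals of group I metabotropic glutamate and muscarinic acetylcholine receptors.

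The libraries held 22349964 to 27605935 estimated counts, and the 10 genes had between 117 (*Itpr3* in SP 1) and 12190 (*Itpr1* in vehicle 3) counts each. All 10 passed the filter on low counts, as did 17069 genes in all. The markers of CA1, CA3 and dentate granule cells were present in every library. SP 1 and SP 2 stood apart in markers of other tissue or of other cell types of the hippocampus. Choroid plexus markers summed to 172 CPM (counts scaled to library size, edgeR) in SP 1 against 2776 to 4681 CPM in the other 5 libraries, while cerebellar markers summed to 38.8 CPM in SP 1 against 14.0 to 16.0 CPM. The 6 dentate granule cell markers summed to 329, 394 and 235 CPM in SP 1, 2 and 3, where vehicle libraries had 254 to 263 CPM. The 6 oligodendrocyte markers summed to 2326, 3160 and 2162 CPM in SP 1, 2 and 3, against 1845 to 2144 CPM in vehicle. Each SP library was above each vehicle library in this sum, and 6 of 6 oligodendrocyte markers were higher on average in SP. The same held for the sums of CA3 markers (98.9 to 115 CPM in vehicle, 122 to 148 CPM in SP) and endothelial and mural markers (170 to 174 and 176 to 185 CPM). Neocortical (234 to 247 and 213 to 224 CPM) and striatal sums (106 to 109 and 98.8 to 102 CPM) were lower in every SP library. In the remaining marker lists the groups overlapped. The part of cell composition in the values of the 10 genes was not tested.

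No gene of the core pathway passed the thresholds of the study, FDR < 0.1 and |log2FC| > 0.3, in the comparison of SP with vehicle. The fitted fold of SP over vehicle was 0.874 for *Rgs4* and 0.869 for *Rgs2*, 1.05 for both *Gnaq* and *Gna11*, and 0.996 for *Itpr1*. The test was edgeR's quasi-likelihood test with the replicate number as a block, and 0.0293% of all tested genes passed both thresholds in it, 0.0176% as higher and 0.0117% as lower in SP. DESeq2 with and without the block and limma-voom also called 0 of the 10 genes. *Rgs4* was the 1 gene of the 10 with an unadjusted p under 0.05, a level met by 10.1% of all tested genes. The values of SP and vehicle mice did not overlap for 3 of the 10 genes, 1 higher and 2 lower, against 18.2% of all tested genes. The median log2 fold change of the 10 genes was -0.028, that of all tested genes 0.0015. For 6 of the 10 genes the 95% interval of the log2 fold change lay within -0.3 to 0.3, as it did for 46.4% of all tested genes and for 65.8% of the 11763 with a mean of 5 to 500 CPM.

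**Figure D1:**
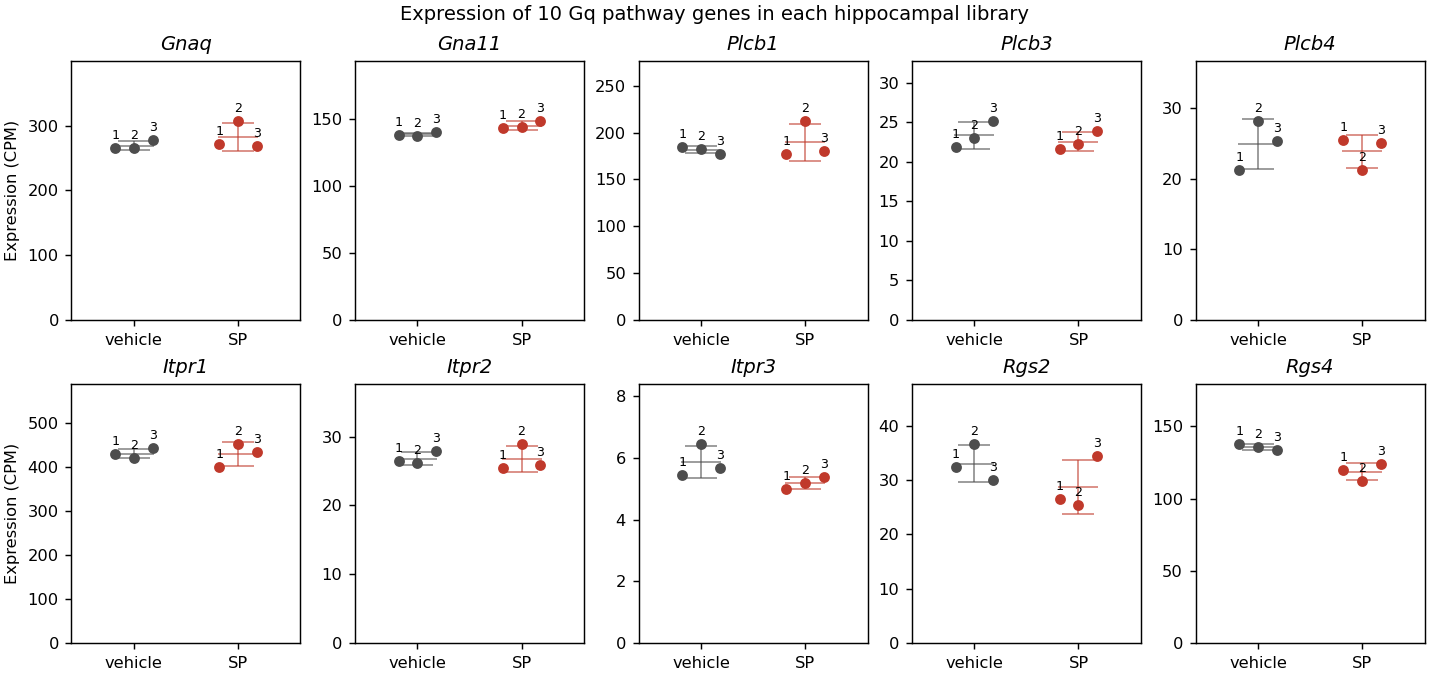
Expression (CPM, linear axis from 0) of the 10 genes in each library, with 1 point for each mouse numbered as in the labels and bars for mean ± SD (n = 3 mice). The vehicle and SP points of *Gna11*, *Itpr3* and *Rgs4* do not overlap, and those of the other 7 genes do.

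**Figure D2:**
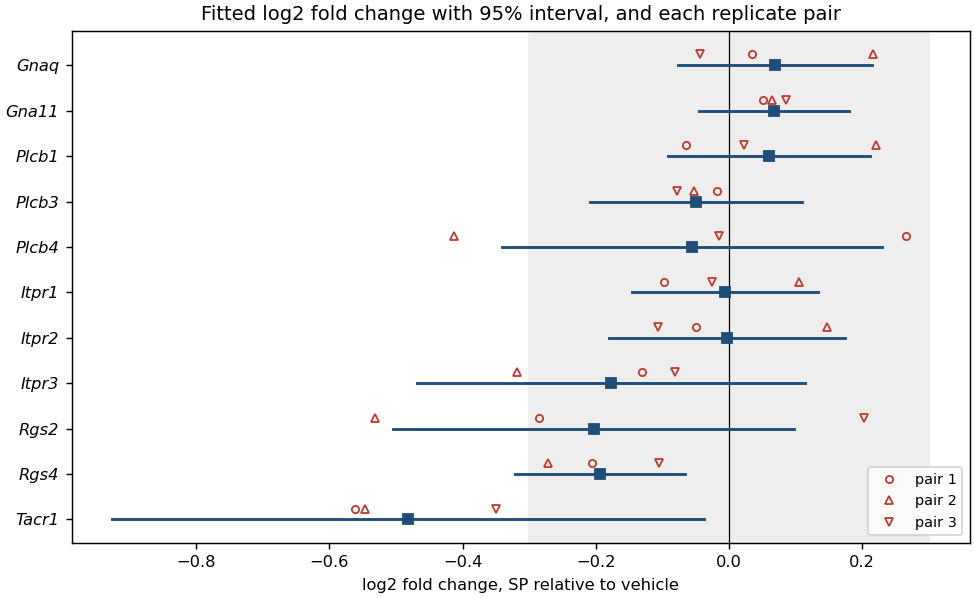
Fitted log2 fold change (square) with its 95% interval (line) for the 10 genes and for *Tacr1*, and the log2 ratio of SP to vehicle within each replicate number (open symbols). The grey band marks -0.3 to 0.3, and the intervals of *Rgs4* and *Tacr1* lie below 0.

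The Gαq subunits were among the most abundant members of the pathway. *Gnaq* (ENSMUSG00000024639, chromosome 19 of GRCm38 from 16132831 to 16387463, plus strand) encodes Gαq, and *Gna11* (ENSMUSG00000034781, chromosome 10 from 81528724 to 81545190, minus strand) encodes Gα11. The coding sequences of both span 1077 bases and are 80.5% identical. Because the libraries measure transcript levels, the windows around the start sites are shown for both genes, from 250 bases before to 50 bases after the start (RefSeq, GRCm38.p6, 5′ to 3′ on the gene's strand). The RefSeq starts differ from the GENCODE M21 gene bounds given above, and for *Gnaq* the whole window lies before the GENCODE start. Capitals mark the GC box GGGCGG and its reverse complement. The windows are chr19:16132434-16132733 (plus) and chr10:81545113-81545412 (minus).
Gnaq: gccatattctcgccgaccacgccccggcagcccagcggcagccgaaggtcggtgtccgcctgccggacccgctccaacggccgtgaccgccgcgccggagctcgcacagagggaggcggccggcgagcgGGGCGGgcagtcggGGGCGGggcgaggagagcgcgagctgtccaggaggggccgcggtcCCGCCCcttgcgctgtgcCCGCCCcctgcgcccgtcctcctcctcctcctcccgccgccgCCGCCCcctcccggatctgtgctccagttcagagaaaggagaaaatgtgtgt
Gna11: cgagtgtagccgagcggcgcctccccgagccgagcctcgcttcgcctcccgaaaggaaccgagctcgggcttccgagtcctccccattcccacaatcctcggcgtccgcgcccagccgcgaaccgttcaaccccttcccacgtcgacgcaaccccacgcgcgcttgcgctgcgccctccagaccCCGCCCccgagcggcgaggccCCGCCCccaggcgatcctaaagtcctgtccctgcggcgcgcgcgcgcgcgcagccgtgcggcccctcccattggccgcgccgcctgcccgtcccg
The *Gnaq* window holds 5 GC boxes and that of *Gna11* holds 2, and both are 75% G and C where the median of all windows was 52.7%. A GC box occurs in 35.7% of 32851 such windows.

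*Gnaq* had 266, 265 and 277 CPM in vehicle 1, 2 and 3 and 272, 308 and 269 CPM in SP 1, 2 and 3. The groups overlapped, and SP 2 was the highest library. The log2 fold change was 0.069 (standard error, SE, 0.0622, 95% interval -0.076 to 0.21, FDR 0.752). *Gna11* had 138, 138 and 140 CPM in the vehicle libraries and 143, 144 and 149 CPM in the SP libraries. For this gene each SP library was above each vehicle library, which by itself makes it higher in all 3 replicate pairs. Its log2 fold change of 0.067 (SE 0.0482, interval -0.046 to 0.18, FDR 0.679) did not pass the test, and groups without overlap in this direction were seen in 9.19% of all tested genes. *Gna11* varied least between vehicle mice, with a coefficient of variation of 1.01%, against 14.1% for *Plcb4* at the other end. In SP the values were 2.13% and 9.90%, and *Rgs2* varied most, with 17.3%. These coefficients include counting error, and *Gna11* had 3219 to 3869 counts in vehicle against 494 to 699 for *Plcb4*.

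Scaled to length, *Gnaq* made up 56.0%, 56.1% and 56.7% of the sum of both genes in the vehicle libraries and 55.8%, 58.6% and 54.5% in the SP libraries. The share differed by 0.025 percentage points between the group means (exact two-sided permutation test, p = 1.0, adjusted p = 1.0 over 7 shares; the smallest p that 3 against 3 mice allow is 0.1). The summed level of both genes was 77.4 ± 1.46 CPM per kb of exon (SD, n = 3) in vehicle and 81.2 ± 3.18 CPM per kb (SD, n = 3) in SP. SP 2, with 84.9 CPM per kb, was also the library with the highest sums of dentate granule cell, CA3, oligodendrocyte and microglia markers. It had the lowest sums of neocortical, subiculum and CA1 markers. The part of cell composition in the summed level of both genes was not tested.

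The PLC-beta isozymes are the effectors of Gαq. *Plcb1* (ENSMUSG00000051177, chromosome 2 from 134786067 to 135475258, plus strand), the main isozyme of forebrain principal neurons, had 185, 183 and 177 CPM in the vehicle libraries and 177, 213 and 180 CPM in the SP libraries. The groups overlapped, with SP 2 again highest. The log2 fold change was 0.060 (SE 0.0648, 95% interval -0.092 to 0.21, FDR 0.801), and it was -0.021 without replicate 2. *Plcb3* (ENSMUSG00000024960, chromosome 19 from 6952325 to 6976470, minus strand), an isozyme found in many tissues, had 21.9, 23.1 and 25.2 CPM in vehicle and 21.6, 22.2 and 23.9 CPM in SP. It was lower in 3 of 3 replicate pairs, but by no more than 0.078 on the log2 scale in any pair, and the groups overlapped (log2 fold change -0.050, SE 0.0679, FDR 0.844). A stretch of 22 exon bases of *Plcb3* overlaps *Ppp1r14b* on the opposite strand, and the strand setting of the counting is not given in the sources used here.

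*Plcb4* (ENSMUSG00000039943, chromosome 2 from 135659011 to 136014593, plus strand) encodes the isozyme known from thalamus, retina and cerebellar Purkinje cells. It had 21.2, 28.2 and 25.3 CPM in the vehicle libraries and 25.5, 21.2 and 25.0 CPM in the SP libraries. The groups overlapped, and the range was wider in vehicle. The log2 ratio within replicate pairs was 0.27, -0.41 and -0.016, the widest spread among the 3 isozymes. The fitted log2 fold change was -0.056 (SE 0.122, interval -0.34 to 0.23, FDR 0.908), and it was 0.12 without replicate 2. The 6 thalamic markers summed to 76.8, 105 and 83.9 CPM in vehicle and 87.0, 99.4 and 83.1 CPM in SP, with 2 of 6 higher on average in SP. None was at 0 in all libraries, but the marker *Gbx2* was at 0 in vehicle 1 and vehicle 3. The part of thalamic tissue in the *Plcb4* values was not tested.

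Per kb of exon, *Plcb1* took 72.7% ± 2.11 of the 3 isozymes in vehicle (SD, n = 3) and 74.2% ± 2.88 in SP (SD, n = 3). *Plcb3* took 14.9% and 14.1%, and *Plcb4* took 12.3% and 11.7%. These shares differed by less than the spread between mice (exact permutation test, lowest p = 0.5, lowest adjusted p = 0.84 over 7 shares). The sum of the isozymes was 22.5 ± 0.376 CPM per kb in vehicle and 23.0 ± 1.5 CPM per kb in SP (SD, n = 3 each).

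**Figure D3:**
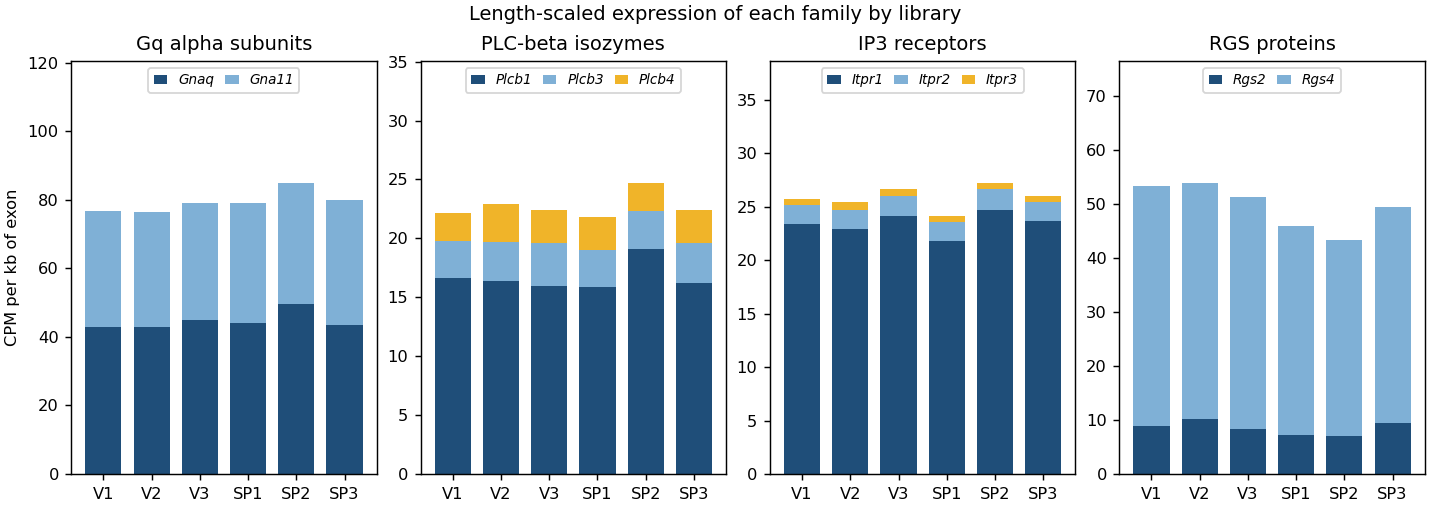
Expression per length (CPM per kb of exon, axis from 0) stacked by gene for the 4 families in vehicle (V1 to V3) and SP (SP1 to SP3) libraries. *Itpr1* takes 90.2% to 91.0% of the IP3 receptors in every library, and the RGS sum is 51.3 to 53.9 in vehicle and 43.3 to 49.5 in SP.

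The IP3 receptors were almost wholly *Itpr1* (ENSMUSG00000030102, chromosome 6 from 108213096 to 108551109, plus strand), the neuronal receptor isoform. *Itpr1* had 428, 420 and 442 CPM in the vehicle libraries and 400, 452 and 434 CPM in the SP libraries. Its group means of 430.1 ± 10.96 CPM and 428.8 ± 26.5 CPM (SD, n = 3 each) were closer than the spread between mice. The log2 fold change was -0.0059 (SE 0.0596, FDR 0.982), and the 95% interval reached from a fold of 0.904 to one of 1.10. *Itpr1* is also abundant in Purkinje cells. SP 1 had the highest cerebellar markers and the lowest *Itpr1*, and the part of cerebellar tissue in the *Itpr1* values was not tested.

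*Itpr2* (ENSMUSG00000030287, chromosome 6 from 146108299 to 146502223, minus strand), the main isoform of astrocytes, had 26.4, 26.1 and 27.9 CPM in vehicle and 25.5, 28.9 and 25.9 CPM in SP. Its log2 fold change was -0.0027 (SE 0.0757, interval -0.18 to 0.17, FDR 0.994). The 6 astrocyte markers summed to 1349 to 1411 CPM in vehicle and 1302 to 1429 CPM in SP, with 3 of 6 higher on average in SP. *Itpr3* (ENSMUSG00000042644, chromosome 17 from 27057304 to 27122223, plus strand), best known from epithelial and taste cells, was the least abundant of the 10 genes. It had 5.45, 6.46 and 5.69 CPM in vehicle and 4.98, 5.18 and 5.38 CPM in SP. Each SP library was below each vehicle library, as in 9.05% of all tested genes. The log2 fold change of -0.18 (SE 0.124, interval -0.47 to 0.11, FDR 0.673) did not pass the test.

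Within the receptor family, *Itpr1* took 90.5% ± 0.247 of the length-scaled level in vehicle and 90.8% ± 0.222 in SP (SD, n = 3 each). *Itpr3* took 2.51% ± 0.265 and 2.23% ± 0.104 (SD, n = 3 each). In its share the groups did not overlap either, which gave the smallest p possible (exact permutation test, p = 0.1, adjusted p = 0.7 over 7 shares). Because *Itpr1* made up most of the sum and its group means were close, this share largely restates the *Itpr3* level. It is not a second observation. The coding sequences of *Itpr1*, *Itpr2* and *Itpr3* are 70.1% to 71.8% identical to each other over the aligned bases, and *Itpr1* shares 0 words of 31 bases with either of the others. The counts of all 10 genes lay within 0.001 of a whole number in every library, and 9.77% of all values in the table differed from a whole number by any amount.

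*Rgs4* and *Rgs2*, the regulators that end the signal, were the 2 genes with the lowest unadjusted p. *Rgs4* (ENSMUSG00000038530, chromosome 1 from 169741477 to 169747642, minus strand) is abundant in cortical and hippocampal neurons and acts on Gαq and Gαi subunits. *Rgs2* (ENSMUSG00000026360, chromosome 1 from 143999338 to 144004161, minus strand) prefers Gαq and is one of the genes that neuronal activity induces. Their windows around the start site are shown because these genes had the lowest unadjusted p of the 10, although neither passed the test (RefSeq, GRCm38.p6, 5′ to 3′ on the minus strand, chr1:169747593-169747892 and chr1:144004100-144004399). Capitals mark the cAMP response half-site TGACG, the GC box GGGCGG and the TATA box TATAAA, each on either strand.
Rgs4: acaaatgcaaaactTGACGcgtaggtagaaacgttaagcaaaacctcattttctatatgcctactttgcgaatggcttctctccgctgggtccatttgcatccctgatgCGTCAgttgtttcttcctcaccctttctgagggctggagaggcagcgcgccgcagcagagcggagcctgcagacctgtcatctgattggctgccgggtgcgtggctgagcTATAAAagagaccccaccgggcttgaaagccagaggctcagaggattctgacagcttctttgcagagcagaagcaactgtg
Rgs2: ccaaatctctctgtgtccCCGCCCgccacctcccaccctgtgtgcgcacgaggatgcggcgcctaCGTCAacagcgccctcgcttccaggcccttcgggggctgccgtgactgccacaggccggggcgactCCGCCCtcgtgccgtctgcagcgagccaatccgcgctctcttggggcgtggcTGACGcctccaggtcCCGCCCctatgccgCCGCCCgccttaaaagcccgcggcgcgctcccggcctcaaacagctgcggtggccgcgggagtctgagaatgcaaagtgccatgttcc
Both windows hold 2 half-sites, where 20.8% of all windows hold at least 1, and the windows found for 7 of the other 8 genes hold 0. *Rgs4* has a TATA box 31 bases before the start, a motif found in 13.6% of windows, and 0 GC boxes, whereas *Rgs2* has 4 GC boxes. The full element TGACGTCA, which contains the half-site, was in none of the windows of the 9 genes and in 1.79% of all windows. These letters describe the windows and were not tied to any change in level.

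*Rgs4* had 138, 136 and 133 CPM in the vehicle libraries and 120, 112 and 124 CPM in the SP libraries. Every SP library was below every vehicle library, and the SP libraries were spread more widely than the vehicle libraries. The group means were 135.6 ± 2.27 CPM and 118.7 ± 5.82 CPM (SD, n = 3 each). The log2 fold change was -0.19 (SE 0.0545, 95% interval -0.32 to -0.066, unadjusted p = 0.00846 from edgeR), with an FDR of 0.384 over all tested genes. Over the alternatives the FDR ranged from 0.101 to 0.856 and the log2 fold change from -0.24 to -0.16, so that *Rgs4* stayed below the fold threshold in each of them.

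*Rgs2* had 32.3, 36.6 and 29.9 CPM in vehicle and 26.5, 25.3 and 34.5 CPM in SP. SP 1 and SP 2 were below all vehicle libraries, while SP 3 was above 2 of them. The log2 fold change was -0.20 (SE 0.129, interval -0.50 to 0.098, FDR 0.637), and it was -0.41 without replicate 3 and -0.038 without replicate 2. The 9 immediate early genes summed to 383, 445 and 419 CPM in vehicle and 310.3, 414 and 474 CPM in SP, with 3 of 9 higher on average in SP and 0 at 0. SP 3 and vehicle 2 were the highest libraries of their groups for *Rgs2* and for this sum. The lowest libraries differed, SP 2 and vehicle 3 for *Rgs2* against SP 1 and vehicle 1 for the sum. The part of neuronal activity in the *Rgs2* values was not tested.

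The length-scaled sum of *Rgs2* and *Rgs4* was 53.4, 53.9 and 51.3 CPM per kb of exon in vehicle and 45.9, 43.3 and 49.5 CPM per kb in SP, where *Rgs4* supplied 80.8% to 84.1% of it. The groups did not overlap. As a description chosen after the values were seen, the ratio of *Rgs4* to *Gnaq* in CPM was 0.519, 0.512 and 0.481 in vehicle and 0.439, 0.365 and 0.461 in SP. The ratio was lowest in SP 2, which had both the lowest *Rgs4* and the highest *Gnaq*. Neocortical markers, a tissue in which *Rgs4* is also abundant, summed to 234 to 247 CPM in vehicle and 213 to 224 CPM in SP, with 2 of 8 genes higher on average in SP and 0 at 0. The 3 subiculum markers summed to 82.2 to 87.7 CPM and 60.0 to 83.9 CPM, with 1 of 3 higher and 0 at 0. The part of dissection in the *Rgs4* values was not tested.

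The genes whose profile over the 6 libraries was most like that of *Rgs4* were *Hecw2*, *Bmt2* and *4930570G19Rik*. Likeness was measured as the root mean square distance between log2 CPM values centred on each gene's mean, which was 0.0133, 0.0177 and 0.0237 for these genes and had a median of 0.158 over all tested genes. *Hecw2* had 31.9, 30.9 and 30.3 CPM in vehicle and 27.6, 25.8 and 28.9 CPM in SP. As *Hecw2* was chosen for its likeness to *Rgs4*, their shared lowest library, SP 2, follows from the choice.

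Compared per kb of exon, the vehicle levels ran from *Rgs4* (43.8 ± 0.732 CPM per kb, SD, n = 3) and *Gnaq* (43.6 ± 1.12) through *Gna11* (33.9 ± 0.344), *Itpr1* (23.5 ± 0.598), *Plcb1* (16.3 ± 0.349) and *Rgs2* (9.09 ± 0.934) to *Plcb3* (3.36 ± 0.243), *Plcb4* (2.78 ± 0.393), *Itpr2* (1.81 ± 0.0636) and *Itpr3* (0.651 ± 0.0584). Over the 6 libraries the ranges of neighbouring genes in this order were separate except for *Rgs4* with *Gnaq* and *Plcb3* with *Plcb4*. The order depended on the length used. With the longest transcript in place of all exons, *Itpr1* stood at 43.6 CPM per kb in vehicle, and its range of 40.5 to 45.8 CPM per kb overlapped those of *Gna11* (40.3 to 43.6) and *Rgs4* (38.2 to 46.9).

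Gq-coupled receptors had a median absolute log2 fold change of 0.34, against 0.064 for the 10 genes and 0.090 for all tested genes, with median standard errors of 0.14, 0.066 and 0.091. Of 24 receptors listed, 23 could be tested, with a median of -0.23 on the log2 scale. An unadjusted p under 0.05 was found for 8 receptors that were lower in SP and 1 that was higher, where 5.59% and 4.48% of all tested genes were lower and higher in this way. Groups that did not overlap were closer to even, with 4 receptors higher and 5 lower in SP, against 9.19% and 9.05% of all tested genes. With edgeR, 0 of the 23 passed the thresholds. With DESeq2 and the block 0 passed, and without the block 2 passed, *Cckbr* and *Adra1d*. Without the filter on low counts 5 passed. The list was written with earlier results known, which already included *Cckbr* and *Tacr1*.

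*Tacr1*, the NK-1 receptor, had 2.58, 2.18 and 2.57 CPM in vehicle and 1.75, 1.49 and 2.02 CPM in SP. The groups did not overlap (log2 fold change -0.48, SE 0.190, 95% interval -0.93 to -0.038, FDR 0.462). *Cckbr*, the cholecystokinin B receptor, had 14.1, 13.6 and 13.7 CPM in vehicle and 9.45, 6.84 and 9.96 CPM in SP, a log2 fold change of -0.67 (SE 0.120, FDR 0.308). The paper lists *Cckbr* as up-regulated, the opposite direction. *Htr2c*, a serotonin receptor that is also abundant in choroid plexus, had 87.2, 93.6 and 106 CPM in vehicle and 46.4, 63.5 and 94.2 CPM in SP (log2 fold change -0.54, FDR 0.335). It was lowest in SP 1, the library with the lowest choroid plexus markers, and the part of that tissue in its values was not tested. *Trhr*, the receptor for thyrotropin-releasing hormone, had the lowest log2 fold change of the list, -0.83 (SE 0.272, FDR 0.417), and was lowest in SP 2 with 1.99 CPM.

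*Adra1d*, an alpha-1 adrenergic receptor, had 32.4, 34.5 and 31 CPM in vehicle and 41.8, 42.9 and 39.5 CPM in SP, a log2 fold change of 0.34 (SE 0.0592, FDR 0.308). Its relatives *Adra1a* and *Adra1b*, together with *Hrh1* and *Ntsr1* (histamine H1 and neurotensin receptors), made up the rest of those lower with a p under 0.05 and were named after their values were seen. *Adra1a* had 6.93 CPM in vehicle and 5.52 CPM in SP on average (log2 fold change -0.34), and *Adra1b* had 3.61 and 2.27 CPM (-0.66). The 2 receptors with the highest levels, named after their values were seen, were *Grm5* (a group I metabotropic glutamate receptor) and *Chrm1* (the M1 muscarinic receptor). *Grm5* had a log2 fold change of -0.040 at 273.8 CPM in vehicle, and *Chrm1* had 0.14 at 209.5 CPM. Their unadjusted p of 0.433 and 0.0861 from edgeR did not pass 0.05.

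**Figure D4:**
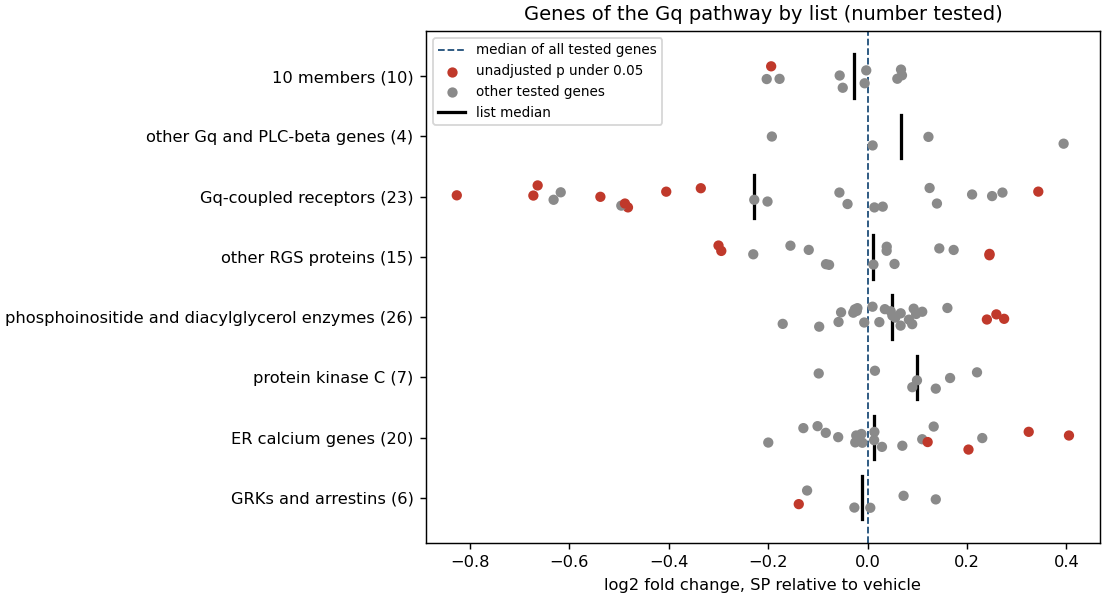
Log2 fold change of SP relative to vehicle for each tested gene (point; red, unadjusted p under 0.05) of the 10 genes and of 7 lists of other genes of the pathway, with list medians (black bars) and the median of all tested genes (dashed line). Gq-coupled receptors reach from -0.83 to 0.34, while the 10 genes stay between -0.20 and 0.069.

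Downstream of PLC-beta, the thresholds were passed with edgeR by 0 of 26 phosphoinositide and diacylglycerol enzymes, 0 of 7 protein kinase C genes and 0 of 20 genes of endoplasmic reticulum calcium. Of the 26 enzymes, 3 were higher with a p under 0.05 and 0 lower, where 4.48% and 5.59% of all tested genes were, with a list median of 0.048. *Itpka*, the kinase that converts IP3 to the tetrakisphosphate in dendritic spines, had 128, 115 and 116 CPM in vehicle and 145, 142 and 146 CPM in SP. The groups did not overlap, with a log2 fold change of 0.27 (SE 0.0538, FDR 0.308). *Dgkz*, a diacylglycerol kinase, had 425, 432 and 465 CPM against 522, 570 and 473 CPM (log2 fold change 0.24, FDR 0.416). *Dagla*, which makes the endocannabinoid 2-arachidonoylglycerol from diacylglycerol, had a log2 fold change of 0.26 (FDR 0.430), with SP 3 at 155 CPM next to 154 CPM in vehicle 3. *Cds1*, which feeds the resynthesis of phosphoinositides, had the lowest value of the list, -0.17 (FDR 0.500).

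Among 20 genes of calcium release and refilling of the endoplasmic reticulum, 4 were higher with a p under 0.05 and 0 lower, to be read against the same 4.48% and 5.59%, and the median was 0.013. *Homer3*, a scaffold that can tie metabotropic glutamate receptors to IP3 receptors, had 48.7, 53.7 and 41.7 CPM in vehicle and 65.6, 68.3 and 56.4 CPM in SP. Its log2 fold change of 0.41 (SE 0.0567, FDR 0.231 from edgeR) passed the thresholds with DESeq2, with FDRs of 0.0332 with the block and 0.0137 without it, and over all alternatives the FDR ranged from 0.00333 to 0.579. *Orai2*, a subunit of store-operated calcium channels, had 147, 145 and 147 CPM against 182, 213 and 158 CPM (log2 fold change 0.32, FDR 0.351). *Cabp1*, a calcium-binding protein that can inhibit IP3 receptors, had a log2 fold change of 0.20 (FDR 0.394). *Homer1*, a related scaffold named after its values were seen, had 0.12 (FDR 0.480). *Mrvi1*, a partner of *Itpr1* in smooth muscle, had the lowest value, -0.20 (FDR 0.737). In the 7 protein kinase C genes, 0 had a p under 0.05, 6 of 7 had positive values and the median was 0.099. The values ran from -0.098 for *Prkcq* to 0.22 for *Prkcd*, which is also a thalamic marker. *Prkca* had 313.0, 309.8 and 308.4 CPM in vehicle and 319.5, 416.2 and 317.5 CPM in SP, so that its value of 0.17 (FDR 0.550) rested mainly on SP 2.

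Of 17 other RGS genes, 15 were tested, and their median was 0.012. *Rgs17* and *Rgs6* were lower with a p under 0.05, at -0.30 (FDR 0.335) and -0.29 (FDR 0.391), and *Rgs14* and *Rgs8* were higher. *Rgs14*, a marker of CA2 pyramidal neurons, had 88.0, 81.7 and 78.8 CPM in vehicle and 97.9, 104 and 93.0 CPM in SP (log2 fold change 0.25, FDR 0.335). The 4 CA3 markers summed to 98.9 to 115 CPM in vehicle and 122 to 148 CPM in SP, with 4 of 4 higher on average in SP and 0 at 0, and the part of cell composition in the *Rgs14* values was not tested. Among 6 GRK and arrestin genes, which uncouple active receptors, the median was -0.011. *Grk3* was lower with a p under 0.05, at -0.14 (FDR 0.465), while *Arrb2* had 0.14 (FDR 0.539) and *Grk5* had -0.12 (FDR 0.694).

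The remaining Gq-class genes were scarce in this tissue. *Gna14* had 0.794 ± 0.493 CPM in vehicle and 0.985 ± 0.0906 CPM in SP (SD, n = 3 each), and *Gna15* had 1.62 ± 0.353 CPM and 1.47 ± 0.815 CPM. Their log2 fold changes of 0.39 and -0.19 had standard errors of 0.398 and 0.336, so that the differences were no larger than their errors. *Ric8a*, a chaperone of Gαq, had a log2 fold change of 0.12 (FDR 0.531). It was higher in 3 of 3 replicate pairs, although mice of the same number did not deviate together across genes.

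Each replicate number was also left out in turn. *Gna11* stayed positive, between 0.055 and 0.076, and *Rgs4*, *Rgs2*, *Itpr3* and *Plcb3* stayed negative. Except for *Rgs2*, these genes had the same sign in every replicate pair. Leaving out a pair could therefore hardly change their sign, and the check adds little for them. *Gnaq* and *Plcb1* were positive and *Plcb4* was negative unless replicate 2 was left out, and *Itpr1* and *Itpr2* lay on either side of 0. Without the block and without SP 1, the library with few choroid plexus markers, *Rgs4* had a log2 fold change of -0.20 (FDR 0.373), and without SP 2 it had -0.16 (FDR 0.271). *Rgs2* had -0.14 and -0.11 in these fits, and *Itpr3* had -0.15 and -0.18.

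**Figure D5:**
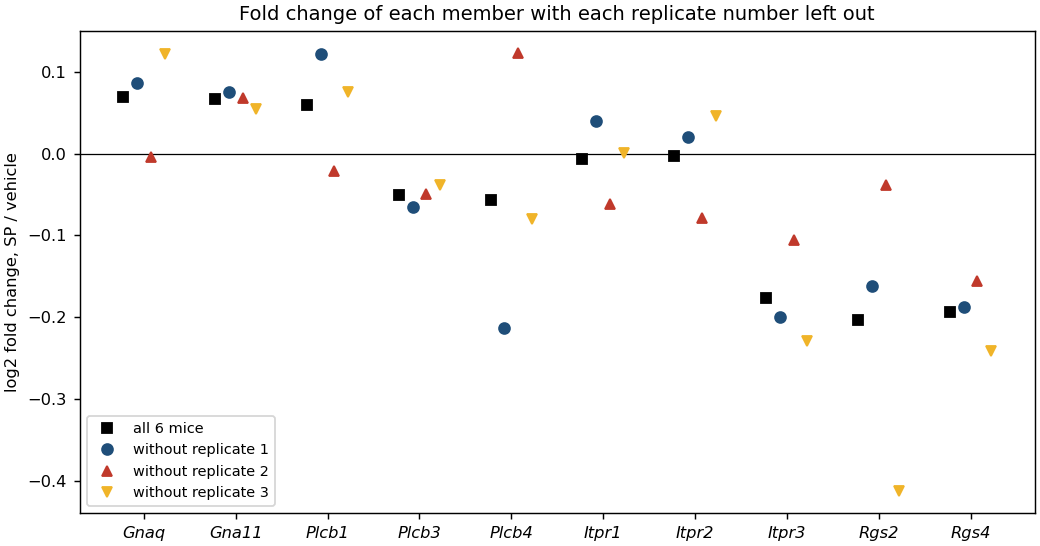
Log2 fold change of SP relative to vehicle for the 10 genes with all 6 mice (squares) and with both mice of replicate 1, 2 or 3 left out. *Rgs4* lies between -0.24 and -0.16 when a replicate is left out, and *Rgs2* between -0.41 and -0.038.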

How the data were processed

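Hippocampal RNA of 3 SP and 3 vehicle mice was measured in stranded mRNA libraries. The authors used TrimGalore for trimming, STAR for alignment (GRCm38) and Salmon for quantification. The deposited values are estimated counts per gene, scaled neither for library size nor length, and were rounded here. The annotation release is not given in the sources used here, and positions and lengths came from GENCODE M21.

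Counts were tested in R 4.3.3 with edgeR 4.0.16 (filterByExpr with a minimum count of 10 and a minimum total of 15, TMM, glmQLFit and glmQLFTest, replicate number as a block because the study adjusts for replicates). Benjamini-Hochberg adjustment ran over all tested genes. Scripts were tested on simulated data. CPM were taken from edgeR and divided by the union of exons for levels per kb. Coding sequences were aligned with Biopython 1.88. At 22349964 to 27605935 counts per library, a count of 0 allows up to 0.109 to 0.134 CPM (3 counts, counting error only).

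The 10 genes, the 7 pathway lists, the 15 marker lists and the motifs were chosen with earlier results of these data known. Genes named are the 10 genes, *Tacr1*, in each pathway list the 3 with the lowest p and the extremes of fold change, and the 3 most like the gene with the lowest p. *Grm5*, *Chrm1*, *Adra1a*, *Adra1b*, *Hrh1*, *Ntsr1*, *Rgs8*, *Homer1* and the ratio of *Rgs4* to *Gnaq* were named after their values were seen. Alternatives used DESeq2 1.42.0, limma-voom (limma 3.58.1), other filters and normalizations, no block, and each replicate left out.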

Additional observations from a re-analysis of the deposited data

How the results depend on the processing

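0 of the 10 genes passed the thresholds in any alternative run. Over all genes, 5 passed with edgeR, 36 with DESeq2 and the block, 133 with DESeq2 without it, 2 with limma-voom, 384 without a filter on low counts, 0 with at least 10 counts in every library, and 9 to 36 with a replicate left out. The labels number the mice alike in both groups, but mice of the same number did not deviate together (Pearson's r across 17069 genes of 0.0140, -0.0656 and 0.0734). Without the replicate block 2 genes passed, and *Rgs4* had -0.19 with an FDR of 0.295. Receptors passing were 2 with DESeq2 without the block, 5 without the filter and 0 to 1 with a replicate left out (*Htr2c*, without replicate 3). Genes of endoplasmic reticulum calcium passing were 1 and 2 with DESeq2 with and without the block and 2 without the filter, and 1 other RGS gene passed without the filter. With a replicate left out, log2 fold changes ranged from -0.0043 to 0.12 for *Gnaq*, -0.021 to 0.12 for *Plcb1*, -0.21 to 0.12 for *Plcb4*, -0.062 to 0.040 for *Itpr1*, -0.079 to 0.047 for *Itpr2*, -0.067 to 0.91 for *Gna14*, -0.66 to 0.24 for *Gna15* and -0.28 to 0.13 for *Prkcq*. The share of *Plcb4* differed by -2.17 to 1.09 percentage points, that of *Itpr2* by -0.068 to 0.23 and that of *Itpr3* by -0.39 to -0.067. In fits chosen after seeing the data, without the block and without SP 1, *Itpr1* had 0.043, *Itpr2* 0.033, *Gna15* 0.14 and *Prkcq* 0.11, and the median of the 10 genes was 0.0053. Without the block and without SP 2, *Plcb1* had -0.025 and *Plcb4* 0.019. The cause of these differences was not tested. With 3 mice a group, exact tests cannot reach p = 0.05, and the counts of *Itpr3*, *Gna14*, *Gna15* and *Tacr1* limit their precision.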
